A study of Mus musculus with 4 samples.

Results

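S100a8 is 1 of the 328 mouse genes that a Xenium panel counted in situ on 4 slides of skin and oral mucosa, and it was followed here through the keratinocyte-like and immune-like cells of every tissue section. Xenium reads each transcript in its place in the tissue by repeated rounds of fluorescent probe hybridization, and a cell's count is the number of transcripts that fall inside its outline. The gene was chosen by name, with earlier results of these data known. Its members are all S100a8 transcripts inside cells whose quality score reached 20. There were 173040 such transcripts in 58616 of 515791 cells on 17 sections. Of these cells, 153713 were keratinocyte-like, of which 15604 held S100a8, and 85241 were immune-like, of which 27539 held it.

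S100A8 is a small calcium-binding protein that pairs with S100A9 to form calprotectin, an antimicrobial complex that sequesters metal ions and makes up much of the neutrophil cytosol. Resting epidermis makes little of it, whereas keratinocytes of wounded, infected or hyperproliferative skin switch it on together with the stress keratins. Its gene lies in the epidermal differentiation complex, beside the filaggrin, loricrin, involucrin and small proline-rich genes that build the cornified envelope. The comparisons therefore asked in which cells S100a8 lay, how its level differed with PITX1, a homeobox transcription factor of oral epithelium, and how it differed between skin, buccal mucosa and wounds.

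The skin came from TRE-Pitx1/Krt5-rtTA mice, in which doxycycline switches on a Pitx1 transgene in the Krt5 promoter's domain, the basal epithelial cells and their descendants. Control mice carried the transgene without doxycycline, PITX1+ mice received doxycycline, and buccal mucosa was from Control mice. Unwounded dorsal skin filled a male slide, with 1 Control and 2 PITX1+ sections, and a female slide, with 2 of each. A slide of male dorsal skin at postoperative day 4 held 1 Control and 2 PITX1+ wound sections, and a buccal slide held 7 sections, which are numbered by their position. Ages were not given in the labels used here. The labels gave both conditions for a whole slide, so the condition of a section was taken from its place on the slide. The labels also did not tie sections to animals. The study's figure legends count as many mice, tissues or wounds as there are sections of each condition, and its text gives a single wound of each mouse to this assay. The spread between sections may therefore be between mice, but the labels do not say so, and p-values measure the spread between sections.

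As a check of these assignments, Pitx1 stood at 13.7 CPM (its count over all panel counts in the cells, scaled to 1e+06) in the keratinocyte-like cells of the Control male section against 1064 and 863 CPM in the PITX1+ male sections. It stood at 52.4 CPM in the Control wound against 639 and 326 CPM in the PITX1+ wounds. On the female slide Pitx1 did not separate the sections, with 61.3 and 53.6 CPM in the sections assigned to Control and 43.6 and 79.2 CPM in those assigned to PITX1+. A direction drawn on the female slide therefore rests on the position of the sections and not on Pitx1. Sex and slide cannot be told apart, and neither can buccal tissue or wounding and slide. Sections held from 136365 to 5581930 transcripts in cells. The neutrophil-like cells carried the markers of their name in wounds, with 12087 CPM of Cxcr2, 23930 CPM of Mmp9 and 13536 CPM of Trem1. The 161 such cells of the PITX1+ male sections had 10609, 29738 and 6430 CPM. The 231 of the PITX1+ female sections had 5368, 3834 and 9714 CPM from 21, 15 and 38 transcripts, with Mmp9 lower, and their naming rests on fewer transcripts. The keratinocyte-like cells carried 38047 CPM of Krt5 and 220 CPM of Cxcr2.

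The start of the gene is shown because its promoter is where epithelial and myeloid control of S100a8 would act. The window is chr3:90668821-90669120 of GRCm38.p6 on the plus strand, taken from RefSeq, and runs from 250 bases before the annotated transcript start to 50 bases after it, with the TATA box in capitals.

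S100a8 promoter: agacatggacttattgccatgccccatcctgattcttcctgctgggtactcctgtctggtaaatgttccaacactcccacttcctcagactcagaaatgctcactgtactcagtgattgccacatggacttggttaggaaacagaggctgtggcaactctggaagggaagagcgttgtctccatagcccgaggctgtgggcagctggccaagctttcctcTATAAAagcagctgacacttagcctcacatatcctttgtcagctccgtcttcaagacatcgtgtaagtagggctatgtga

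The letters TATAAA began 30 bases before the start, and 8.32% of the 32851 mouse windows of the same length held them on the forward strand. The window held no match on either strand to TAATCC, the core bound by bicoid-type homeodomain factors such as PITX1, which 7.06% of all windows held. It held none to the AP-1 letters TGANTCA, present in 7.81% of windows. These are matches of letters in this window, and binding was not measured on the slides.

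Over whole sections, S100a8 ranged across more than 2 orders of magnitude. The Control male section held 23 S100a8 transcripts, or 48.4 CPM, and the Control female sections held 79 and 63, or 105 and 126 CPM. The PITX1+ male sections stood at 607 and 292 CPM, and the sections assigned to PITX1+ on the female slide at 1330 and 547 CPM. Every PITX1+ section thus lay above every Control section of unwounded skin. The 7 buccal sections ran from 32.3 CPM through a median of 88.0 CPM to 488 CPM, overlapping both. The wounds stood far above all of these, at 9725 CPM in the Control wound and 12479 and 18994 CPM in the PITX1+ wounds.

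The Control level was close to the floor of the assay. S100a8 was only 6.78, 15.02 and 16.3 times the mean of the 213 control codes, which match no gene, in the 3 Control sections. In the PITX1+ sections it was 130 to 325 times that mean, and in the wounds 2090 to 4956 times. Among all S100a8 decodes of any quality, 83.1%, 53.3% and 55.3% fell below the quality score of 20 in the Control sections, compared with 15.7% to 32.4% in the PITX1+ sections and 12.5% to 24.6% over the whole panel in any section. In the 5 buccal sections with the fewest S100a8 transcripts 53.8% to 81.3% of S100a8 decodes fell below it, and in the other 2 the share was 39.3% and 33.2%. Each S100a8-holding keratinocyte-like cell of the Control female sections, 37 and 33 cells, held exactly 1 transcript. Control keratinocyte-like cells were below fibroblast-like cells in the male section and slightly above them in the female ones: 6.86, 98.6 and 126 CPM in the keratinocyte-like cells of the 3 Control sections stood beside 47.2, 75.7 and 121 CPM in their fibroblast-like cells. A fold change against Control depends on these low levels.

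In keratinocyte-like cells, S100a8 was higher in PITX1+ than in Control skin. It stood at 6.86 CPM (1 transcript in 4219 cells) in the Control male section, and at 98.6 and 126 CPM in the Control female sections. The PITX1+ male sections had 502 and 152 CPM, and the sections assigned to PITX1+ on the female slide had 1756 and 841 CPM. Every PITX1+ section exceeded every Control section, and the gap was smallest between the second PITX1+ male section and the Control female sections, which lay on another slide. With slide as a covariate the difference was 4.06 ± 0.65 on the log2 scale (SE, edgeR quasi-likelihood test, adjusted p = 0.0095). Of the 328 genes tested, 31.1% passed the same threshold, 13.7% as higher and 17.4% as lower, so S100a8 was 1 of many. On the female slide alone the difference was 3.90 ± 0.44 (SE, edgeR adjusted p = 5.31e-05), where 42.1% of genes passed. On the male slide alone, where the 1 Control section was assumed to vary like the PITX1+ ones and the spread of Control was not measured, it was 5.47 ± 1.58 (SE, edgeR adjusted p = 0.160). There 0% of genes passed, with 94 at an unadjusted p under 0.05 and S100a8 among them. The test of whether the 2 slides differed gave 1.34 ± 2.03 log2, male minus female (SE, edgeR adjusted p = 0.763). When decodes of every quality were counted the difference was 2.53 log2. It was 4.20 log2 in the keratinocyte-like cells that held no transcript of any of the immune markers. A deeper cell is less likely to lack every marker, and the part of depth in this value was not tested.

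**Figure D1:**
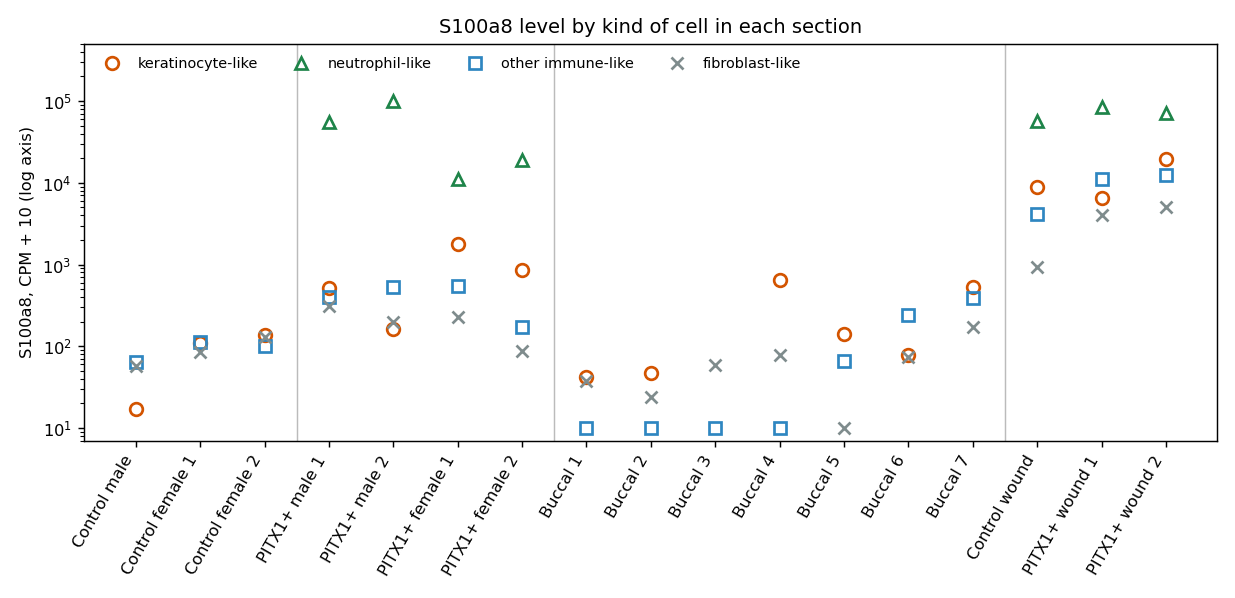
S100a8 as CPM + 10 on a log axis in each section, grouped by condition, for keratinocyte-like (circles), neutrophil-like (triangles), other immune-like (squares) and fibroblast-like (crosses) cells, each point the sum of 1 kind in 1 section with at least 10 such cells. In keratinocyte-like cells the 4 PITX1+ sections lie from 152 to 1756 CPM, above the 3 Control sections, and the 3 wounds lie from 6532 to 19311 CPM.

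The kinds of keratinocyte were fitted separately, and the difference between kinds was not tested. Differentiated-like cells were named from a list of suprabasal markers, among them Krt1, Dsc1 and Hrnr, which led only some of their clusters. In these cells S100a8 stood at 0, 97.7 and 116 CPM in the Control sections. It stood at 994 and 100 CPM in the PITX1+ male sections and at 2393 and 1555 CPM in those assigned to PITX1+ on the female slide. The second PITX1+ male section thus fell between the Control female values, while the other PITX1+ sections lay above all Control sections. The difference was 5.42 ± 0.92 log2 (SE, edgeR adjusted p = 0.0105), in a comparison where 14.3% of 328 genes passed. Different clusters made up this class in the 2 conditions. The clusters richest in S100a8, described next, held under 50 cells in each unwounded Control section. In a cluster both conditions had, led by Krt77 and Clca3a2, S100a8 stood at 0, 90.9 and 73.2 CPM in the Control sections, at 0 and 14.4 CPM in the PITX1+ male sections and at 355 CPM in the first female one. In another, led by Hrnr, Krt77 and Rxra, it stood at 0, 106 and 264 CPM in the Control sections, 41.0 and 15.9 CPM in the PITX1+ male sections and 860 and 1090 CPM in the female ones. In the third, led by Krt79, Crabp2 and Plet1, it stood at 0, 134 and 0 CPM in the Control sections, 376 and 77.1 CPM in the PITX1+ male sections and 1138 and 322 CPM in the female ones. Within shared clusters the PITX1+ female values thus lay above all Control values, while of the PITX1+ male values only the 376 CPM did, and the part of cluster make-up in the class difference was not tested.

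In hair follicle-like cells the difference did not pass. These cells had 18.1, 108 and 153 CPM in the Control sections, 304 and 176 CPM in the PITX1+ male sections and 155 and 108 CPM in the sections assigned to PITX1+ on the female slide. The groups overlapped on the female slide and the fitted difference was 0.72 ± 0.59 log2 (SE, edgeR adjusted p = 0.338), where 39.3% of genes passed. Different clusters made up this class too. A cluster led by Wfdc3, Krt15 and Col17a1 held 1281 of 1944, 2498 of 3299 and 1974 of 2528 such cells in the Control sections, while the clusters led by Ptch1 and Cntfr, by Shh and Dlx3 and by Dsg4 held under 50 cells in each of them. In the Wfdc3 cluster S100a8 stood at 0, 105 and 125 CPM in the Control sections, 73.6 and 13.8 CPM in the PITX1+ male sections and 0 and 124 CPM in the female ones. In the other cluster that all 7 sections had, led by Krt79 and Fcgbp, it stood at 72.4, 32.6 and 163 CPM in the Control sections, 87.1 and 0 CPM in the PITX1+ male sections and 213 and 102 CPM in the female ones. The conditions overlapped in both clusters. In basal-like cells, whose clusters had Col17a1 and Itgb4 or Itga6, genes of the hemidesmosome, among their leading genes, no Control section held an S100a8 transcript, among 21385 transcripts, which allows up to 140 CPM over the group (3 counts). The PITX1+ sections held 887, 0, 484 and 295 CPM, with the second male section at 0 like the Control sections. Their mean of 416 CPM was at least 2.97-fold higher than that floor, a bound that the 887 CPM of the first male section raised. The edgeR test did not pass (8.497 ± 4.25 log2, SE, edgeR adjusted p = 0.290), in a fit that depends on the prior count where Control is at 0. There 0 of 286 genes passed, with 57 at an unadjusted p under 0.05.

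Fibroblast-like and vascular-like cells give the level of S100a8 in cells beside the epithelium. Fibroblast-like cells had 305 and 190 CPM in the PITX1+ male sections and 217 and 76.5 CPM in those assigned to PITX1+ on the female slide. These overlapped the Control values given above, with a difference of 0.83 ± 0.55 log2 (SE, edgeR adjusted p = 0.377; 7.93% of genes passed). Vascular-like cells had no S100a8 in any Control section, among 25175 transcripts, which allows up to 119 CPM over the group. They had 761 and 1100 CPM in the PITX1+ male sections and 102 and 188 CPM in the female ones, a mean at least 4.51-fold above the floor (edgeR adjusted p = 0.0388; 3.36% of 238 genes passed). The male slide carried this bound: the first female value came from 2 transcripts and lay below the floor, and the Control female sections held only 5126 and 2359 vascular-like transcripts, on which together 3 counts would exceed both female values. In the second PITX1+ male section vascular-like cells held 196 S100a8 transcripts, about as many as the 213 in all its keratinocyte-like cells.

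Within the differentiated-like cells, S100a8 lay in a few clusters that were built without it. The highest was led by Aldh1a3, Arg1 and Plet1, with 5019 CPM in the first PITX1+ male section and 7084 and 4349 CPM in the sections assigned to PITX1+ on the female slide. Its naming as differentiated-like depended on the setting: with 60 clusters, the cluster led by the same genes was given no kind. A cluster led by Krt1, Dsc1 and Hrnr, genes of the upper epidermis, had 2516 and 2056 CPM in those female sections and held 1704 of the 2740 keratinocyte-like S100a8 transcripts of the second. The 2 slides differed in where the remainder lay. In the PITX1+ male sections a hair follicle-like cluster led by Dsg4 and Krtap17-1, genes of the hair shaft, had 1293 and 1733 CPM from 218 and 124 transcripts, and it had 254 and 398 CPM in the female sections. This cluster's difference between slides was not tested.

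**Figure D2:**
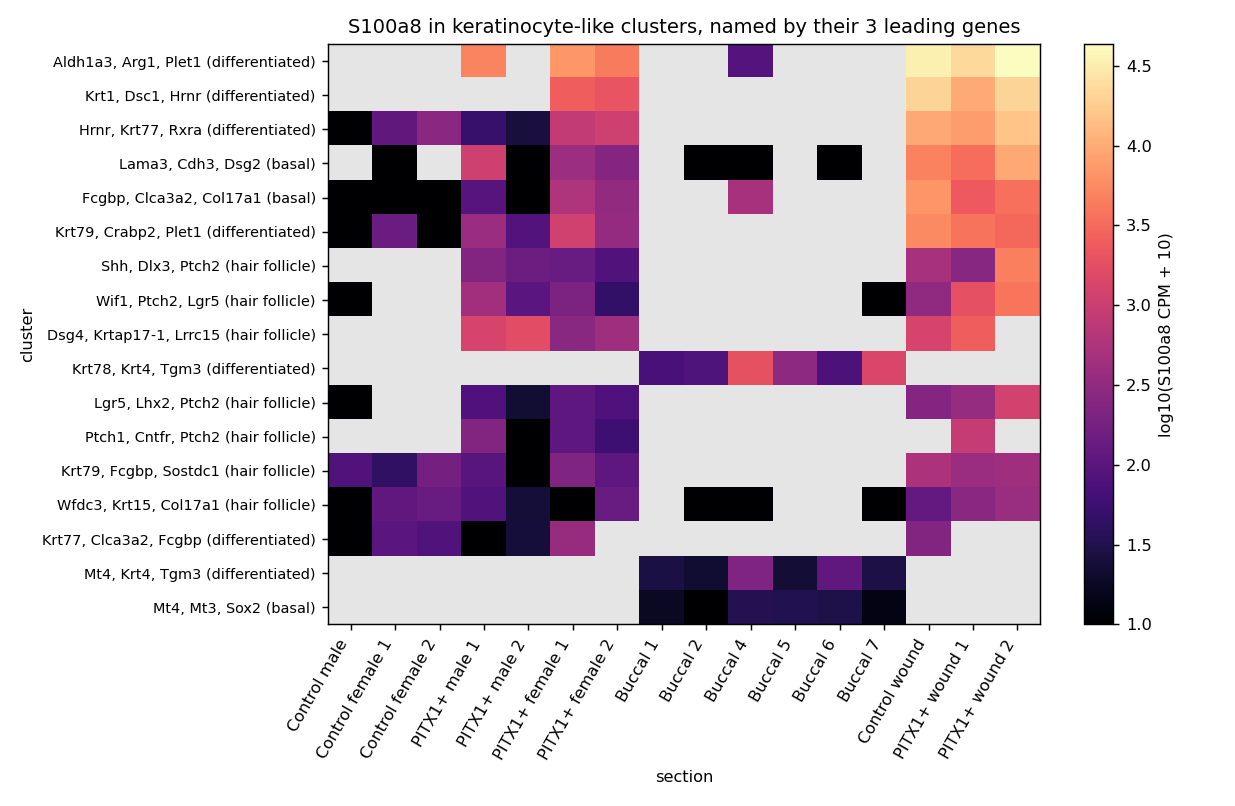
Each row is a cluster of keratinocyte-like cells that is reported here, named by its leading genes, each column a section, and the colour is log10(S100a8 CPM + 10), with grey where a section has too few cells of the cluster. The Aldh1a3, Arg1, Plet1 cluster is at the top of unwounded PITX1+ skin, from 4349 to 7084 CPM, and reaches 43364 CPM in the wounds.

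The share of cells with S100a8 was also compared at 1 depth. Unthinned, 0.024%, 0.598% and 0.700% of keratinocyte-like cells in the Control sections held a transcript, against 2.68% and 1.16% in the PITX1+ male and 11.03% and 4.59% in the PITX1+ female sections. With each cell thinned to 20 transcripts the expected shares were 0.018%, 0.203% and 0.235% in the Control sections. They were 0.732% and 0.296% in the PITX1+ male sections and 2.497% and 0.723% in those assigned to PITX1+ on the female slide. The order of the groups was the same, with no overlap, and the mean difference was 0.910 percentage points (exact permutation test, two-sided, p = 0.0571, the lowest that 3 against 4 can reach). Leaving out 1 section gave 0.432 to 1.17 points. Buccal sections had 0.039% to 0.680% at this depth, overlapping the other groups.

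Most S100a8-holding keratinocyte-like cells of unwounded skin held 1 transcript. The first PITX1+ male section had 580 such cells, of which 176 held 2 or more and the richest held 14. The second had 146, of which 36 held 2 or more, with a maximum of 8. The sections assigned to PITX1+ on the female slide had 2439 and 1481 such cells, of which 818 and 520 held 2 or more, with maxima of 12 and 17. Position was also counted in squares of 100 µm that held keratinocyte-like cells. In the PITX1+ male sections 50% of the S100a8 lay in 19 of 601 and 8 of 453 squares. In the female ones it lay in 55 of 699 and 29 of 746 squares. The Control female sections, with only 37 and 33 S100a8 transcripts, reached 50% in 17 of 304 and 16 of 278 squares. The spread of the keratinocyte-like cells themselves over the squares was not compared, so patchiness was not tested.

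Counted per cell, S100a8 was sparsest in the keratinocyte-like cells nearest the dermis. Distance was taken from each keratinocyte-like cell to its nearest fibroblast-like cell. In the section assigned to PITX1+ with the most S100a8, the first female one, the level rose from 0.0353 transcripts per cell within 10 µm to 0.109 at 10 to 20 µm, 0.240 at 20 to 40 µm and 0.353 beyond. In the second female section the same bins held 0.0086, 0.0186, 0.0811 and 0.318 transcripts per cell. The second PITX1+ male section rose from 0.0027 to 0.0410 across the bins, and the first from 0.0189 to 0.0699 at 20 to 40 µm with 0.0522 beyond. The Control wound rose from 0.0607 within 10 µm to 5.47 beyond 40 µm, and the PITX1+ wounds from 0.298 to 1.60 and from 0.890 to 4.95. All 7 of these sections were thus lowest per cell within 10 µm. As CPM, which scales for depth, the first PITX1+ male section was not lowest there, at 240, 229, 742 and 801 CPM over the bins. The first female section had 582, 1347, 2127 and 2064 CPM, with no rise in the last bin. The other sections were lowest within 10 µm by CPM too. Over nuclei, S100a8 in PITX1+ keratinocyte-like cells was sparser than the panel: 28.2% of keratinocyte-like S100a8 in the PITX1+ female sections lay over a nucleus, against 45.2% for the panel in the same cells, and 41.0% against 54.7% in the PITX1+ male sections. Control keratinocyte-like cells went the other way, with 56.3% of 71 transcripts against 47.2%.

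**Figure D3:**
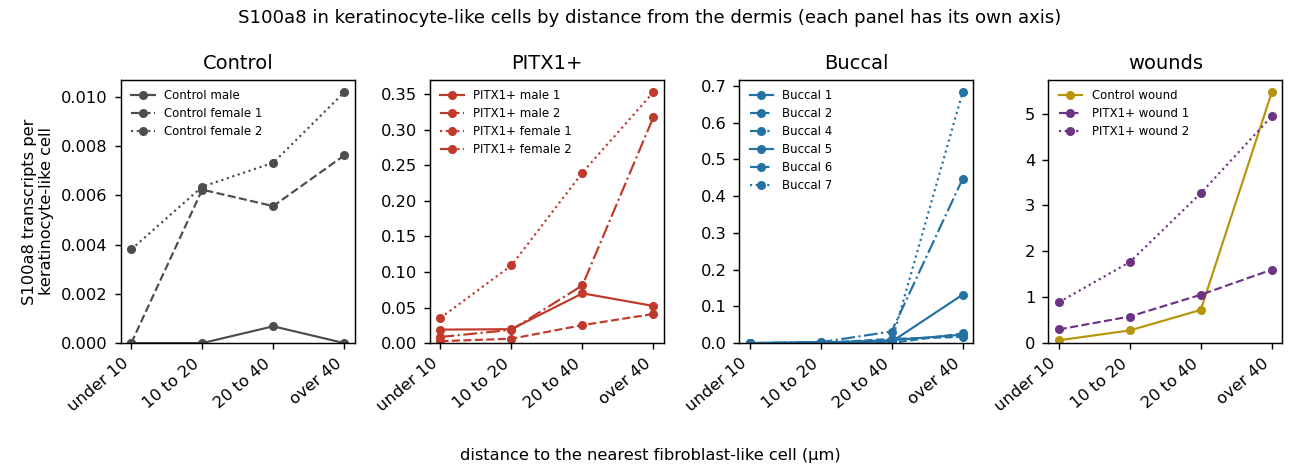
S100a8 transcripts per keratinocyte-like cell against the distance to the nearest fibroblast-like cell, in µm, for each section, with a separate vertical scale in each panel. Each line is 1 section. Unwounded PITX1+ sections reach 0.353 transcripts per cell beyond 40 µm and the wounds reach 5.47.

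In immune-like cells S100a8 was also higher in the PITX1+ sections, but the test over all genes did not pass. The Control sections had 72.5, 103 and 89.8 CPM, from 4, 5 and 1 transcripts. The PITX1+ male sections had 2105 and 869 CPM and those assigned to PITX1+ on the female slide 651 and 190 CPM. The groups did not overlap, and the difference was 2.95 ± 0.70 log2 (SE, edgeR adjusted p = 0.0964). Of 326 genes, 0% passed by edgeR, with 49 at an unadjusted p under 0.05, S100a8 among them at 0.0022. When decodes of every quality were counted the difference was 1.82 log2 (edgeR adjusted p = 0.184). By DESeq2 it was 2.82 log2 (adjusted p = 0.0049), where 9.54% of 283 genes passed. On the male slide alone, again with 1 Control section whose spread was not measured and which held 4 S100a8 transcripts, it was 4.05 ± 0.86 log2 (SE, edgeR adjusted p = 0.00101; 1.4% of genes passed). On the female slide alone it was 1.87 ± 0.68 log2 (SE, edgeR adjusted p = 0.111; 8.9% passed). The difference between the 2 slides was 2.06 ± 1.29 log2, male minus female (SE, edgeR adjusted p = 0.681). A sum over immune-like cells cannot tell more S100a8 in each cell from more neutrophil-like cells among them.

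Neutrophil-like cells, where S100a8 is a constitutive gene, held the highest level wherever there were enough of them. The Control male section had 7 such cells with 1 S100a8 transcript, and the Control female sections had none. The PITX1+ male sections had 145 and 16 cells, at 56022 and 101215 CPM. The sections assigned to PITX1+ on the female slide had 186 and 45 cells, at 11211 and 18987 CPM. The female values were below both male values, and 15.6% of the neutrophil-like cells of the first female section held S100a8. The median depth of neutrophil-like cells was 34 transcripts on the male and 15 on the female slide, and the part of this in the lower level was not tested.

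Immune-like cells other than neutrophil-like ones had 54.5, 103 and 89.8 CPM in the Control sections, and 389 and 528 CPM in the PITX1+ male sections. They had 540 and 160 CPM in those assigned to PITX1+ on the female slide. The PITX1+ sections lay above the Control sections without overlap, and the difference was 2.22 log2 (edgeR adjusted p = 0.0967). In the first female section 103 of these 161 transcripts lay in 1 macrophage cluster, led by Fn1, Saa3, Mrc1 and C1qa, at 694 CPM. That cluster also held 4741 of the 9325 such cells there, and its level was close to the 540 CPM of the whole class. Other immune-like cells within 50 µm of a neutrophil-like cell held more S100a8 than those farther away. They held 0.0985 against 0.0145 and 0.169 against 0.0459 transcripts per cell in the PITX1+ male sections, and 0.0367 against 0.0117 and 0.0611 against 0.00603 in the female ones. Near cells were higher in 4 of 4 sections, with a mean difference of 0.0719 transcripts per cell (exact permutation of signs, two-sided, p = 0.125, the lowest with 4 sections).

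Keratinocyte-like cells near neutrophil-like cells were examined in the same way. In the PITX1+ male sections those within 50 µm held 0.178 and 0.159 S100a8 transcripts per cell against 0.0309 and 0.0157 farther away. In the sections assigned to PITX1+ on the female slide they held 0.392 against 0.159 and 0.0913 against 0.0848. The level near was higher in 4 of 4 sections, by 0.132 transcripts per cell on average (same exact permutation test, p = 0.125), and in the second female section the difference was 0.00646. Restricted to keratinocyte-like cells with no immune marker, the mean difference was 0.109, with near cells higher in 4 of 4. Restricted to differentiated-like cells it was 0.368, with near cells higher in 3 of 4 sections and lower in the second female section, at 0.197 against 0.269 transcripts per cell. The largest difference, 0.794 in the second PITX1+ male section, rested on only 20 near cells. In the wounds near cells held 2.97 against 1.16, 1.35 against 0.586 and 3.79 against 1.63 transcripts per cell, all higher near. In keratinocyte-like cells over 50 µm from any neutrophil-like cell the difference between PITX1+ and Control was 3.90 log2 (edgeR adjusted p = 0.0055). That between wounds and unwounded skin was 6.41 log2 (edgeR adjusted p = 0.0369). Over all keratinocyte-like cells they were 4.06 and 6.48 log2. Distance was taken only to neutrophil-like cells, which had at least 10 transcripts. In the wounds, cells with fewer were given no name and had 40652 to 61633 CPM of S100a8. Whether cells counted as far lay near unnamed neutrophils was not tested.

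**Figure D4:**
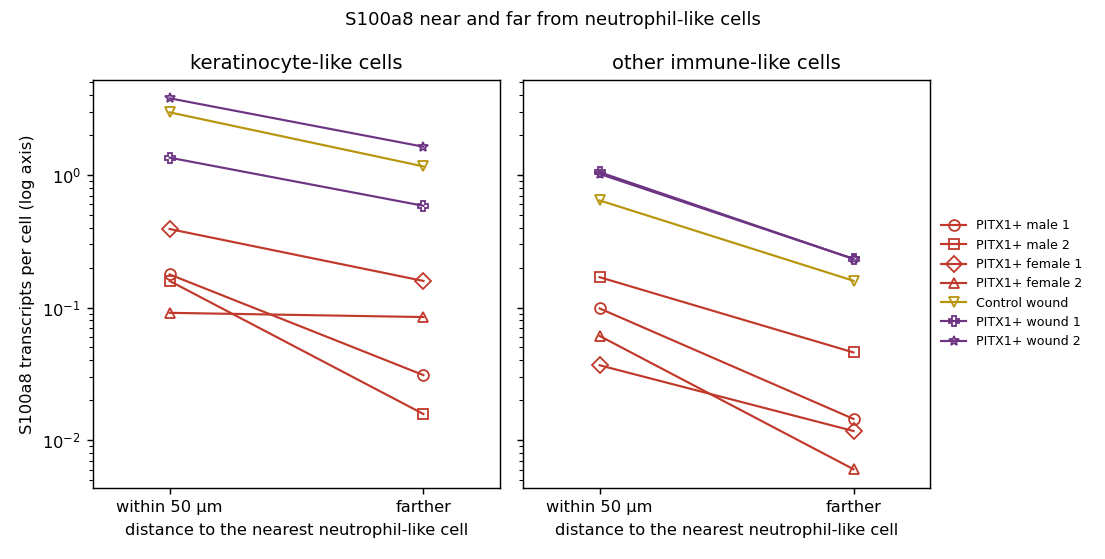
S100a8 transcripts per cell within 50 µm of a neutrophil-like cell and farther away, for keratinocyte-like and other immune-like cells, on a log axis. Each pair of joined points is 1 section. Near cells are higher in every pair, with the smallest gap in keratinocyte-like cells of the second PITX1+ female section, 0.0913 against 0.0848.

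Which class of cell had the higher level differed between sections. The log2 ratio of the immune-like to the keratinocyte-like level, with 10 CPM added to each, was 2.29 in the Control male section and 0.05 and -0.45 in the Control female sections. It was 2.05 and 2.44 in the PITX1+ male sections and -1.42 and -2.09 in those assigned to PITX1+ on the female slide. Immune-like cells were thus higher in both PITX1+ male sections and keratinocyte-like cells in both PITX1+ female ones, and the Control ratios rest on 1 to 5 immune-like transcripts. Over the 7 sections the mean was 0.41 ± 1.86 (SD; exact permutation of signs, two-sided, p = 0.531), a ratio not distinguishable from 1. PITX1+ minus Control was -0.39 (two-sided exact permutation test, p = 0.857), and within slides it was -0.05 on the male and -1.56 on the female slide. In the buccal sections the mean was -1.59 ± 2.62 (SD, n = 6; exact permutation of signs, p = 0.188), but 3 of the 6 immune-like sums held no S100a8 and 2 held 1 transcript, so the added 10 CPM or a lone transcript set most of these ratios and nothing is read from them. In the wounds immune-like cells were higher, by 0.87 in the Control wound and 2.06 and 0.56 in the PITX1+ wounds.

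Counted by transcripts rather than by level, keratinocyte-like cells held 4.35%, 46.8% and 52.4% of the S100a8 in cells of the Control sections. They held 54.1% and 25.5% in the PITX1+ male sections and 85.5% and 89.8% in those assigned to PITX1+ on the female slide. The groups overlapped between slides, through the second male section, and not within a slide. The mean difference of 29.2 percentage points did not pass (two-sided exact permutation test without slide, p = 0.2). With 3 against 4 sections the lowest p of this exact test is 0.0571, so it could not pass. The difference ran from 14.1 to 41.9 points without 1 section. It was 35.4 points within the male and 38.0 points within the female slide. Of the transcripts of all genes, keratinocyte-like cells held 145759 of 474847, 375295 of 749248 and 260997 of 498617 in the Control sections. They held 1853336 of 2832562 and 1399026 of 2861190 in the PITX1+ male sections. In the PITX1+ female sections they held 2223528 of 3432078 and 3258858 of 5581930. The part of this in the difference was not tested. In the wounds, where there were more immune-like cells, the share of S100a8 was 39.8%, 24.5% and 32.6%.

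Ranked by mean log2 level over the 4 PITX1+ and 3 wound sections, the order of cells was neutrophil-like, differentiated-like, other immune-like, vascular-like, basal-like, fibroblast-like, hair follicle-like and sebaceous-like. Neutrophil-like cells exceeded differentiated-like ones in 7 of 7 sections, by 4.00 ± 2.95 log2 (SD; exact permutation of signs, two-sided, p = 0.0156, the lowest with 7 sections; 0.055 after Benjamini-Hochberg adjustment over 7 neighbouring pairs). The median level was 56886 CPM in the first and 2393 CPM in the second. Differentiated-like cells exceeded other immune-like ones in 5 of 7 sections, by 1.02 ± 1.79 log2 (SD, exact p = 0.203). Vascular-like cells ranked above basal-like ones by the mean but exceeded them in 2 of 7 sections, 1 of them the second PITX1+ male section, where basal-like cells held none. The neighbours from other immune-like to hair follicle-like did not separate beyond their spread, with exact p from 0.078 to 0.906. Hair follicle-like cells exceeded sebaceous-like ones in 7 of 7 sections, by 2.44 ± 1.72 log2 (SD, exact p = 0.0156, adjusted 0.055).

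Buccal keratinocyte-like cells held a low and uneven level of S100a8. Over 6 sections it ran from 31.6 CPM through a median of 98.8 CPM to 643 CPM, and the other section held no keratinocyte-like cells. The values overlapped both the Control and the PITX1+ skin sections. Buccal minus Control was 3.03 ± 1.18 log2 (SE, edgeR adjusted p = 0.0394), in a comparison where 70.1% of 324 genes passed, 32.1% as higher and 38% as lower. With library size scaling in place of TMM it was 1.58 log2 (edgeR adjusted p = 0.198), and it did not pass when any of 5 single sections was left out. PITX1+ minus buccal was 0.71 ± 0.89 log2 (SE, edgeR adjusted p = 0.492), in a comparison where 60.5% of genes passed. With library size scaling it was 1.76 log2 (edgeR adjusted p = 0.0908), and it ran from 0.0128 to 1.26 log2 without 1 section. In keratinocyte-like cells without any immune marker the same difference was 4.81 log2 (edgeR adjusted p = 0.00156). Chil3, counted among those markers, was itself high in the superficial buccal clusters, and only 34.7% to 62.6% of buccal keratinocyte-like cells lacked all of them. Without Chil3 in the list 63.2% to 72.8% lacked them and the difference was 2.85 log2 (edgeR adjusted p = 0.0176). A deeper cell is less likely to lack every marker. Differentiated-like cells with 2 or more S100a8 transcripts were deeper than those with none in the fourth and seventh buccal sections. Their median depths were 451 against 220 and 910 against 317 transcripts. The part of depth in the marker-free differences was not tested.

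Most buccal S100a8 lay in 1 surface cluster of 2 sections. In the cluster led by Krt78, Krt4 and Tgm3, markers of the mucosal surface, the fourth and seventh sections had 1888 and 1367 CPM, from 551 and 651 transcripts. The same cluster had from 61 to 285 CPM in the other 4 sections with keratinocyte-like cells, and in the sixth section a cluster led by Mt4, Krt4 and Tgm3 was higher than it, at 104 against 68.5 CPM from 8 and 5 transcripts. In the seventh section 30.3% of all S100a8 lay in cells of unnamed clusters. Beyond 40 µm from a fibroblast-like cell these 2 sections held 0.447 and 0.683 transcripts per cell. In the seventh section 75 cells held all 662 of the keratinocyte-like S100a8 transcripts, with up to 51 in a cell, and 50% of them lay in 2 squares of 100 µm. Only 9.86% of buccal keratinocyte-like S100a8 lay over a nucleus, against 26.3% for the panel in these cells. Buccal immune-like cells held S100a8 in 3 of 7 sections, with 1, 1 and 36 transcripts. The gene did not pass the count filter there, and without the filter buccal minus Control was 0.66 ± 1.21 log2 (SE, edgeR adjusted p = 0.752).

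In both keratinocyte-like and immune-like cells S100a8 was higher in each wound than in any unwounded section. In keratinocyte-like cells it stood at 8889 CPM in the Control wound (95% exact Poisson interval 8670 to 9111), and at 6532 CPM (6406 to 6660) and 19311 CPM (19105 to 19518) in the PITX1+ wounds. The Control wound thus lay between the PITX1+ wounds, and the 2 conditions were not tested against each other in wounds, where Control had 1 section. The intervals cover counting error only. Each wound lay above each male unwounded section, by a fitted 6.48 ± 1.15 log2 with condition as a covariate (SE, edgeR adjusted p = 0.0486), where 4.59% of 327 genes passed, 4.28% as higher and 0.306% as lower. The call ended without the Control wound (5.64 log2, edgeR adjusted p = 0.0645), the first PITX1+ wound (7.50 log2, adjusted p = 0.0502), the second (6.27 log2, adjusted p = 0.177) or the second PITX1+ male section (adjusted p = 0.0569). In immune-like cells S100a8 stood at 16289, 27264 and 28536 CPM in the 3 wounds, above each male unwounded section, by 4.87 ± 0.68 log2 (SE, edgeR adjusted p = 0.00279; 47.4% of 321 genes passed, 24.9% as higher and 22.4% as lower).

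Within the wounds neutrophil-like cells again held the highest level. Neutrophil-like cells made up 47.0%, 36.5% and 39.1% of immune-like cells. They held 56886 CPM in the Control wound and 85724 and 71475 CPM in the PITX1+ wounds, with 63.5%, 78.8% and 78.1% of cells positive. The class joined a cluster led by Mmp9 and Cxcr2 and a shallower cluster led by Ccl3, Ccl4 and Spp1. The Mmp9 cluster held 409 of 3591 such cells in the Control wound and 2733 of 5516 and 8501 of 12668 in the PITX1+ wounds. Within it S100a8 stood at 54236, 85556 and 70881 CPM, with 73.6%, 82.2% and 82.3% of cells positive. Differentiated-like cells held 15686, 9925 and 24541 CPM, basal-like cells 6257, 3122 and 8761 CPM and hair follicle-like cells 508, 827 and 2107 CPM. Differentiated-like cells exceeded hair follicle-like ones in each wound. In the cluster led by Aldh1a3, Arg1 and Plet1 the level was 33550, 23000 and 43364 CPM, below the neutrophil-like cells of each wound. Other immune-like cells held 4148, 11044 and 12349 CPM, with the Control wound lowest. Of the macrophage clusters, that led by Mmp12, Il7r and Ctss held 9300, 15501 and 16954 CPM. Fibroblast-like cells held 915, 4058 and 5051 CPM, the lowest of the 3 in the Control wound. At 20 transcripts per cell, 6.94%, 8.53% and 22.6% of keratinocyte-like cells held S100a8, and the richest held 61, 38 and 75 transcripts.

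Within differentiated-like cells, those with 2 or more S100a8 transcripts were compared with those that had none, in the 6 PITX1+ and wound sections with at least 20 of the former. Other genes were counted as CPM without S100a8, and the ratios are given as a description. The 2 sets of cells can lie in different clusters of the class, and the part of cluster make-up in the ratios was not tested. S100a8-rich cells were deeper in every section, for example a median of 139.5 against 67 transcripts in the first PITX1+ male section, 197 against 98 in the first female one and 356 against 119 in the second. Of the 5 small proline-rich genes on the envelope list, Sprr1a, Sprr1b, Sprr2a3 and Sprr2d were higher in S100a8-rich cells of 6 of 6 sections and Sprr3 of 4. In the first PITX1+ male and first female sections, only 4 of the 10 envelope genes were higher. The list medians there were -0.47 and -0.21 log2, against -0.37 and -0.54 over all genes. In the second female section 7 of the 10 were higher, in the Control wound 5 and in the PITX1+ wounds 9 and 7. Sprr2d was higher in 6 of 6 sections, by a median of 2.15 log2 with a range of 1.49 to 3.62, and Sprr1b by a median of 1.67 in 6 of 6. Flg2, a filaggrin relative of undisturbed epidermis, was lower in 6 of 6, with a median of -1.95. Of the 13 activation genes 9 were higher in 6 of 6 sections, as were 22 of all 327 genes, and Serpinb3b and Stfa3 were higher in 5, Tnip3 in 3 and Krt17 in 2. Slpi, a secreted protease inhibitor, was higher by 1.48, Il1f6, which encodes interleukin-36α, by 1.45, Hbegf by 1.39 and Krt16, a stress keratin, by 1.01, each in 6 of 6 sections.

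Krt77, a suprabasal keratin, and Krt15, a basal keratin, had the lowest medians of all genes in S100a8-rich cells, -4.39 and -3.96 log2, each lower in 6 of 6 sections. Of the 12 neutrophil and myeloid genes, 11 were higher in S100a8-rich cells of the first PITX1+ male section, 12 and 10 in the PITX1+ wounds, 5 in the Control wound and 3 in each section assigned to PITX1+ on the female slide. The median of the list lay above that of all genes in each of these sections. It was 2.56 against -0.37 log2 in the male section and 1.89 against -0.32 and 1.48 against -0.49 in the PITX1+ wounds. In the Control wound it was -0.20 against -0.95, and in the female sections -0.41 against -0.54 and -0.52 against -0.80. Cxcr2 was the 1 gene of this list that was higher in all 6. Trem1, a myeloid receptor, was 3.72 log2 higher in S100a8-rich cells of the first PITX1+ male section and 2.35 and 2.62 higher in the PITX1+ wounds. It was -0.14 and -0.54 in the sections assigned to PITX1+ on the female slide and 0.16 in the Control wound. Hdc, the histamine-forming enzyme of neutrophils and mast cells, was 3.50 log2 higher in the first PITX1+ male section, 0.79 in the Control wound, 2.54 and 2.48 in the PITX1+ wounds and -1.24 and -1.40 in the female sections. Trem1 and Hdc were thus higher in S100a8-rich cells of the first PITX1+ male section. In the female sections neither was above 0, with Trem1 above the median of all genes and Hdc below it. The part of neighbouring neutrophils in this was not tested.

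**Figure D5:**
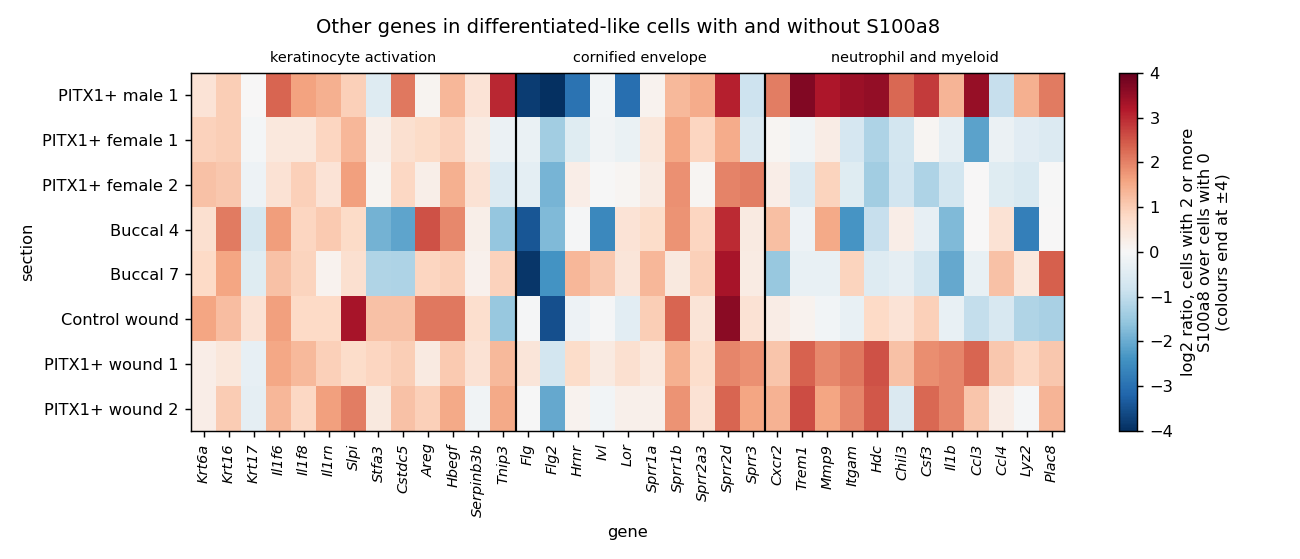
Each row is a section, each column a gene of 3 lists, and the colour is the log2 ratio between differentiated-like cells with 2 or more S100a8 transcripts (red, higher) and those with 0 (blue, higher), with colours ending at 4 in either direction. Sprr2d, Sprr1b and Slpi are red in all 6 PITX1+ and wound sections and in 2 buccal sections, and Trem1 and Hdc are red in the first PITX1+ male section and the PITX1+ wounds and pale or blue in the PITX1+ female sections.

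Genes whose pattern over the classes of cell was most like that of S100a8 were sought over 78 sums, each of 1 class in 1 section, which share sections and slides. The nearest was Cxcr2, the neutrophil chemokine receptor, with a Pearson correlation of 0.80 in log2(CPM + 10). It was followed by Il1b at 0.70, Mmp9 at 0.67, Hdc at 0.65, Cxcl1 and Junb at 0.64, Spp1 at 0.63, Cxcl3 at 0.62, Csf3 at 0.61 and Saa3 at 0.60. Over the keratinocyte-like sums of 16 sections the nearest genes were Anxa3 at 0.85, Junb at 0.82, Arrdc4 at 0.81, Il1rn at 0.79 and Cstdc5 at 0.78. Of these only Junb was also among the nearest over the classes of cell. Without the wounds Anxa3 stayed nearest, at 0.69 over 13 sections.

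Activation genes were counted beside S100a8. In keratinocyte-like cells 3 of the 13 listed activation genes were higher in PITX1+ than Control skin and none lower, where 31.1% of all genes passed and 13.7% as higher, with a median of 1.71 log2 against -0.07 over all 328 genes. Slpi stood at 61.7, 203 and 188 CPM in the Control sections and at 6893, 2096, 9320 and 10208 CPM in the PITX1+ ones, without overlap (5.92 ± 0.54 log2, SE, edgeR adjusted p = 0.00151). Krt16 stood at 371, 360 and 318 CPM and at 9672, 3546, 7298 and 13706 CPM, also without overlap (4.67 ± 0.59 log2, SE, edgeR adjusted p = 0.0035). Areg, an EGF receptor ligand, was the third. Krt6a, the partner of Krt16, did not pass, with 17289 CPM in the Control male section against 17940 and 11558 CPM in the PITX1+ male sections and 967 and 1119 against 9397 and 13587 CPM on the female slide.

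Of the 10 cornified envelope genes, neighbours of S100a8 in the epidermal differentiation complex, 2 were higher, Sprr1a and Sprr1b, and 1 was lower, Flg2, in PITX1+ keratinocyte-like cells, a share close to the 31.1% of all genes. Their median was 0.51 log2. Flg2 stood at 44889, 42647 and 46652 CPM in the Control sections and at 5501, 11441, 11166 and 4816 CPM in the PITX1+ ones, the opposite direction to S100a8 (-2.42 ± 0.41 log2, SE, edgeR adjusted p = 0.0095). Of 12 neutrophil and myeloid genes, 0 were higher and 1, Lyz2, was lower in keratinocyte-like cells, with a median of -0.66 log2; S100a8 was not on that list. Of 9 neutrophil attractants none passed. Of 6 AP-1 and C/EBP genes Cebpb was higher, by 1.16 ± 0.25 log2 (SE, edgeR adjusted p = 0.016), and Fos was lower.

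In PITX1+ immune-like cells none of these lists held a gene that passed, as for the panel as a whole. The medians were 0.84 log2 for the neutrophil and myeloid genes and 1.11 for the attractants, against 0.10 over all genes. In wound immune-like cells 10 of the 12 neutrophil and myeloid genes were higher and Lyz2 was lower, with a median of 4.16 log2, and 8 of the 9 attractants were higher, where 47.4% of all genes passed and 24.9% as higher. In wound keratinocyte-like cells 5 of the 13 activation genes (Il1f6, Il1f8, Stfa3, Cstdc5 and Serpinb3b) and 3 of the 10 envelope genes (Sprr1b, Sprr2a3 and Sprr2d) were higher with S100a8, where 4.59% of all genes passed. None of the neutrophil, attractant or transcription factor genes passed there, but the medians of the neutrophil and myeloid genes and of the attractants, 3.07 and 2.60 log2, were above the 2.14 of the activation genes and the -0.10 of all genes. Cxcr2, the neutrophil chemokine receptor, was at 4.01 ± 1.01 log2 (SE, edgeR adjusted p = 0.0882), Mmp9 at 3.76 ± 1.21 (adjusted p = 0.126) and Itgam, an integrin of myeloid cells, at 3.25 ± 0.89 (adjusted p = 0.107). In keratinocyte-like cells with no transcript of an immune marker the wound difference in S100a8 was 6.19 ± 0.99 log2 (SE, edgeR adjusted p = 0.0379). The part of cell depth in this value was not tested. In buccal keratinocyte-like cells 9 of the 13 activation genes were higher and 1 lower than in Control skin. There 70.1% of all genes passed, 32.1% as higher. The median of the list was 3.09 log2, and S100a8 in the same fit was at 3.03 log2 (edgeR adjusted p = 0.0394). The S100a8 levels of the 2 tissues nonetheless overlapped, and its call ended with library size scaling.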

How the data were processed

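The authors deposited Xenium decoded transcripts, each with a gene, a position, a quality score and a cell, and the positions of cells, for 4 slides. From these deposited files whole-number counts per cell were made over 328 genes, from transcripts in cells with a quality score of at least 20; they carry no normalization. Sections were sets of cells chained within 100 µm (200 µm in wounds) with at least 2000 cells. Cells with at least 10 transcripts were grouped by k-means (45 clusters, 40 principal components, 29 genes left out, S100a8 among them) and named "-like" from marker genes; no doublet caller was run. Counts were summed per section and class over at least 50 cells and tested with edgeR 4.0.16 (quasi-likelihood, TMM, slide as covariate, Benjamini-Hochberg over all genes, threshold 0.05) in R 4.3.3, with DESeq2 1.42.0 as an alternative. On simulated counts with 200 changed genes edgeR recovered 100% of them in keratinocyte-like and 98% in immune-like sums, PITX1+ against Control, with 3 false calls in each. In immune-like sums, buccal against Control, there were 14 false calls. This is a check of the fit and not a measure of its power in the real sums. Other values used exact permutation over sections (SciPy 1.17.1). Intervals are 95% and cover counting error only. The gene, its lists and tests were chosen with earlier results of these data known. Named genes were S100a8, Pitx1, its nearest genes by correlation, and up to 4 members of each list by mean level, while others named in the text were chosen after their values were seen. Of the keratinocyte-like clusters, 1 is not reported here.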

Additional observations from a re-analysis of the deposited data

Results flagged for a closer look

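In groups of 4 to 10 sections, 24 sets of S100a8 values were examined for a section far from the rest, and chance marks about 1 set in 20. The seventh buccal section stood apart from the other buccal sections in 3 of them, at 610 CPM in immune-like cells, 161 CPM in fibroblast-like cells and 329 CPM in vascular-like cells. The third buccal section stood apart with a keratinocyte-like share of S100a8 of 0%, and it held no keratinocyte-like cells.

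Cells outside the named classes also held S100a8 above the Control level. In cells with under 10 transcripts the lowest PITX1+ section had 495 CPM and the lowest wound 40652 CPM, against a highest Control value of 319 CPM. In cells of unnamed clusters the lowest PITX1+ section had 212 CPM and the lowest wound 8345 CPM, against a highest Control value of 142 CPM. In wounds these shallow cells had from 40652 to 61633 CPM, beside 56886 to 85724 CPM in neutrophil-like cells, whose median depth there was 26 transcripts.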

How the results depend on the processing

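S100a8 in keratinocyte-like cells, PITX1+ against Control, kept its direction under all 22 alternatives and its call under 20; the call ended without the slide covariate (3.61 log2) and on the male slide alone (5.47), and leaving out 1 section gave 3.63 to 4.45. It was 3.07 over nuclei and 2.53 with decodes of any quality, the lowest. The number of genes called there, 102, became 162 with DESeq2, 32 without the slide covariate, 0 on the male slide alone and 31 to 121 without 1 section. In immune-like cells the difference passed with DESeq2 (2.82) and on the male slide alone (4.05, with 1 Control section assumed to vary like the PITX1+ ones), and without the second PITX1+ section (edgeR adjusted p = 0.023), with 2.02 to 3.66 without 1 section and 1.82 with decodes of any quality, the lowest; 0 genes were called, against 2 with library size scaling, 27 with DESeq2, 10 over nuclei, 1 in cells of at least 20 transcripts, 29 in females only, 4 in males only and 0 to 26 without 1 section. Buccal against Control lost its call with library size scaling (1.58) and in cells with no immune marker other than Chil3 (1.23). It gave 2.43 to 3.51 without 1 section, and the call ended without each Control section and without the fourth or seventh buccal section. PITX1+ against buccal passed in cells with no immune marker (4.81) and with Chil3 ignored (2.85). Wound against unwounded lost its call with library size scaling (6.25), without the count filter (6.47), without the condition covariate (5.97) and with 60 clusters (6.43), and gave 5.64 to 7.55 without 1 section, where the call ended without the second PITX1+ male section, the Control wound or either PITX1+ wound. The immune-like to keratinocyte-like ratio, PITX1+ minus Control, turned positive with 60 clusters (0.82), without clusters (0.068) and with a pseudocount of 100 (0.047), and ran from -1.12 to 0.44 without 1 section. The causes were not tested. The slide-only and marker-free alternatives of Chil3 and of neighbouring cells were chosen after seeing the data. No paired analysis was possible because the sections carry no replicate numbers in the labels. Control counts of 0 to 37 transcripts per section and class limit every fold change against Control skin.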

Other observations

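Other genes of the S100a8-rich differentiated-like cells were not on the lists. Arg1, which splits arginine, was higher in these cells in 6 of 6 PITX1+ and wound sections, by a median of 1.95 log2 with a range of 1.29 to 2.54. Hpgd, which inactivates prostaglandins, was higher in 6 of 6 by a median of 1.54, Aldh1a3, a retinaldehyde dehydrogenase, by 1.37 and Cnfn, a cornified envelope protein, by 1.34. Arg1, Aldh1a3 and Cnfn were also among the leading genes of the cluster richest in S100a8, and the part of cluster make-up was not tested. In the fourth and seventh buccal sections Arg1 was at -0.05 and 0.87. Mt4, a metallothionein of stratified epithelium, lay at the other end, at a median of -2.67 log2 and lower in 6 of 6 sections.

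Saa3, an acute-phase gene and among the 10 nearest to S100a8 over the classes of cell, separated from it in immune-like cells. Saa3 stood at 145, 205 and 0 CPM in the immune-like cells of the Control sections, 574 and 316 CPM in the PITX1+ male sections and 28673 and 5772 CPM in those assigned to PITX1+ on the female slide. S100a8 in the same sums was highest in the first PITX1+ male section, at 2105 CPM, and stood at 651 and 190 CPM in the female ones. The wounds had 4583, 9574 and 10433 CPM of Saa3 and the highest S100a8. The difference between slides in Saa3 was not tested.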
